A study of Mus musculus with 40 samples.

Results

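The AMPA and kainate receptor subunits are 9 of the 47643 Ensembl genes counted in the brains of mice that received human gut microbiota: the AMPA subunit genes *Gria1*, *Gria2*, *Gria3* and *Gria4* and the kainate subunit genes *Grik1*, *Grik2*, *Grik3*, *Grik4* and *Grik5*. They were picked by gene symbol and not by a rule on measured values, but with earlier results of these data known. All 9 have a row in both count tables. Recipients were germ-free, wild-type Swiss Webster mice, an outbred stock, aged 6 to 8 weeks, described in the methods as female and fed a control chow. Each cohort was colonized with stool that 1 of 10 children with refractory epilepsy gave before (pre-KD) or during (post-KD) a clinical ketogenic diet (KD), and hippocampus and frontal cortex were taken 4 days later. RNA of 6 mice was pooled per library, so the 40 libraries are 10 for each region and condition, from 20 cohorts, and differences between single mice are not seen. All groups share the mouse stock, the germ-free start and the chow, and every group received a human microbiota, so no uncolonized mice are part of the comparison.

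Both families are tetrameric glutamate-gated cation channels, and AMPA receptors carry most of the fast excitatory current at synapses of the forebrain. *Gria2* encodes GluA2, whose transcript is edited at the glutamine/arginine (Q/R) site in the pore, which makes receptors that hold it nearly impermeable to calcium. The kainate subunits GluK1 to GluK3 can form channels by themselves, whereas GluK4 and GluK5 need a partner of the first group; kainate receptors act on both sides of the synapse and are known for their part in hippocampal mossy fiber transmission and in seizures evoked by kainic acid.

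The sequences below show how alike the 9 genes are at the site that separates calcium-permeable from calcium-impermeable channels. Each run holds 57 coding bases of the pore loop, written 5′ to 3′ on the sense strand as in the GENCODE M21 transcripts (GRCm38), and the capitals mark the genomic glutamine codon of the Q/R site.
Gria1: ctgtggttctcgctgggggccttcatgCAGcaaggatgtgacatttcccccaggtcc
Gria2: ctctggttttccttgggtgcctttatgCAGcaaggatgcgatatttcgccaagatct
Gria3: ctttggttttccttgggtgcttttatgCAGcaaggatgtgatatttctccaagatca
Gria4: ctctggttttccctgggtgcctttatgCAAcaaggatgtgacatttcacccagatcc
Grik1: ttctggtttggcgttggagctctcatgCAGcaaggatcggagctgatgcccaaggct
Grik2: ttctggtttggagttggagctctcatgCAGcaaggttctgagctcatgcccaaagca
Grik3: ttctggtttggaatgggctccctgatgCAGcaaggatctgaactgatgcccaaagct
Grik4: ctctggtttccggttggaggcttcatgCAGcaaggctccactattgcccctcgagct
Grik5: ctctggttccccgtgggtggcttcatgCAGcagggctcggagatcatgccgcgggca

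The glutamine codon is CAG in 8 genes and CAA in *Gria4*. In *Gria2* it lies at chr3:80706911-80706913 on the minus strand, in exon 11 of 16 of the transcript used. It lies in exon 12 of 17 in *Grik1*, at chr16:87940542-87940544, and in exon 13 of 17 in *Grik2*, at chr10:49244329-49244331, both also on the minus strand. These 3 transcripts are the ones known to be edited there. Between AMPA subunits, 45 to 52 of the 57 bases were equal, and 47 to 51 among *Grik1*, *Grik2* and *Grik3*. *Grik4* and *Grik5* shared 41 with each other and 33 to 40 with *Grik1*, *Grik2* and *Grik3*. An AMPA and a kainate window shared between 34 and 41. No pair of windows was identical. The deposited values are 1 count per gene and library, so editing at this codon and the alternative flip and flop exons cannot be read from them.

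The 9 genes lie on 8 chromosomes. *Gria1* spans chr11:57011387-57330244, *Gria2* chr3:80681450-80802835, *Gria3* chrX:41400854-41678601 and *Gria4* chr9:4417896-4796234 (GRCm38). Of the kainate genes, *Grik1* spans chr16:87895900-88290265, *Grik2* chr10:49094833-49788766 and *Grik3* chr4:125490700-125714173, while *Grik4* and *Grik5* span chr9:42518135-42944493 and chr7:25009849-25072346. All are annotated as protein coding. Their exons overlap other gene models only at 4 small RNA models on the same strand, which share 111 bases with *Gria2*, 85 with *Gria3*, 19 with *Gria4* and 59 with *Grik4*.

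Libraries held 1140756 to 2095352 counts on genes, and *Gm42418*, a gene model that overlaps ribosomal RNA sequence, took 8.63% to 18.02% of them. Levels are given as CPM, the counts of a gene divided by the library's total in units of 1e+06 counts, with the total scaled by trimmed mean of M values (TMM) factors over all 40 libraries. In mouse, *Xist* marks cells with 2 X chromosomes, and the 8 libraries of donors 9 and 10 held 3.40 to 27.2 CPM of it against 450 to 729 CPM in the other 32. The same 8 libraries held 34.6 to 82.6 CPM of the Y-linked *Ddx3y*, which the other libraries held at 0 to 15.8 CPM, so these pools go against the stated sex. Both regions and both conditions hold them in equal number. Each comparison was also fitted without them. The X-linked *Gria3* ranged from 255 to 377 CPM in their hippocampal pools and from 128 to 402 CPM in the other 16.

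*Gria1*, *Gria2* and *Gria3* had the highest counts of the 9 genes in both regions. *Gria2* was at 924 ± 80.6 CPM in hippocampal and 840 ± 77.3 CPM in frontal cortical libraries (SD, n = 20 each). *Gria1* was at 559 ± 133 and 333 ± 58.3 CPM, and *Gria3* at 275 ± 74.1 and 323 ± 29.3 CPM. *Gria4*, the AMPA subunit best known from interneurons and early development, was lower, at 63.2 ± 29.7 and 71.3 ± 25.0 CPM. Relative to its level *Gria2* varied least between hippocampal libraries, with a coefficient of variation of 8.72% in the hippocampus, while in the cortex its 9.20% was close to the 9.09% of *Gria3*.

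The kainate subunit with the highest count was *Grik5*, at 61.7 ± 15.5 CPM in hippocampal and 58.4 ± 21.3 CPM in frontal cortical libraries (SD, n = 20). *Grik4*, whose transcript is known from CA3 pyramidal cells, was at 33.4 ± 18.5 and 22.3 ± 11.7 CPM. *Grik2* was at 22.8 ± 13 and 22.2 ± 11.5 CPM. *Grik1* was at 13.6 ± 13.4 and 12.5 ± 8.57 CPM, and *Grik3* at 10.2 ± 12.2 and 15.5 ± 9.50 CPM. The lower genes were unevenly sampled. *Grik1* had no count in 7 hippocampal libraries and 1 cortical library, and *Grik3* in 6 and 1. A count of 0 allows up to 3 counts, or 1.63 to 2.5 CPM in a hippocampal and 1.5 to 2.83 CPM in a cortical library, and these limits cover counting error only. Within each region and condition, the variance of the counts between libraries was 3.34 to 62.8 times what counting alone gives, so the spread between libraries was larger than counting alone gives. Without donors 9 and 10 (n = 16 per region) every subunit's mean CPM moved by less than its SD, with *Gria1* at 566 ± 141 and 334 ± 59.8 CPM and *Gria2* at 922 ± 88.7 and 848 ± 77.4 CPM. Among the kainate genes, in the 4 cortical pools of donors 9 and 10 *Grik1* had a median of 2.93 CPM against 14.02 CPM in the other 16, and *Grik3* one of 24.4 CPM against 14.4 CPM. In hippocampal pools the median of *Grik3* was 3.23 CPM against 8.66 CPM.

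**Figure D1:**
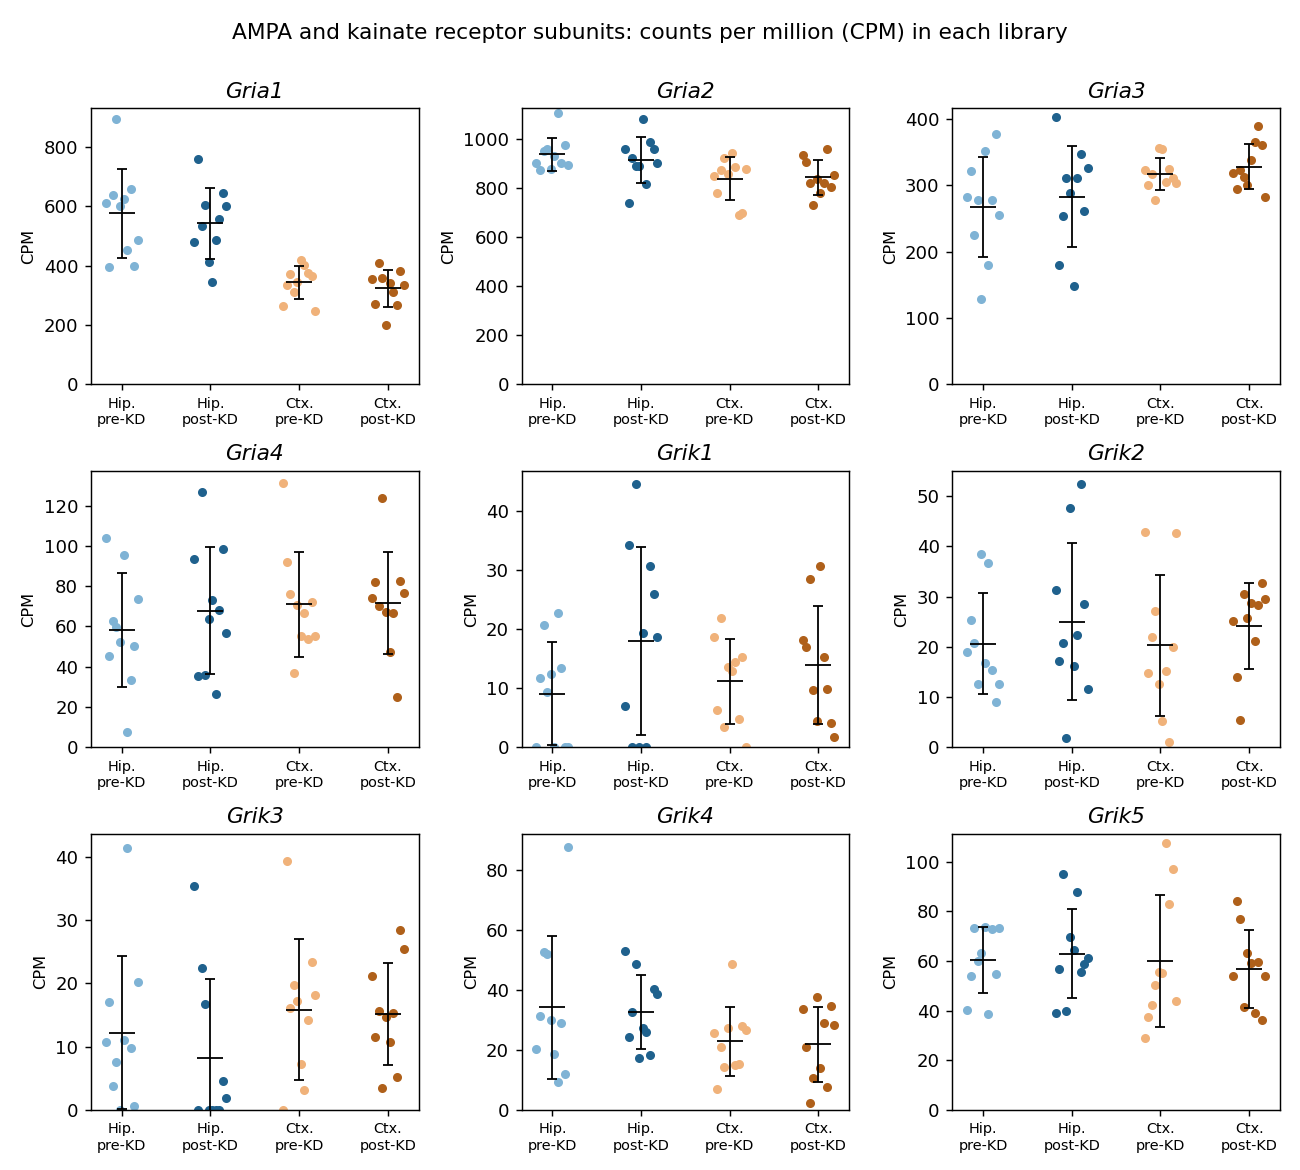
Each point is the CPM of 1 gene in 1 library (linear axis from 0), with the mean and SD of the 10 libraries of a group in black (Hip., hippocampus; Ctx., frontal cortex). Pre-KD and post-KD points intermix for all 9 genes, while most hippocampal *Gria1* points lie above the cortical ones.

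If reads fall along the whole transcript, a longer gene gives more reads at the same level. To set genes side by side under that assumption, which the sources used here do not settle, CPM were divided by the kilobases of annotated exon sequence of each gene, from 5168 bases for *Grik5* to 15548 for *Gria2*. On that scale the hippocampal order was *Gria1* (92.6 ± 22.0 CPM per kilobase, SD, n = 20), *Gria2* (59.4 ± 5.18), *Gria3* (27.9 ± 7.51), *Grik5* (11.9 ± 2.998), *Gria4* (10.02 ± 4.70), *Grik4* (5.61 ± 3.10), *Grik1* (2.02 ± 1.99), *Grik2* (1.72 ± 0.981) and *Grik3* (1.13 ± 1.36). *Gria1* was above *Gria2* in 19 of 20 libraries, *Gria2* above *Gria3* in 20 and *Gria3* above *Grik5* in 20. Lower down, *Grik4* was above *Grik1* in 17 libraries, *Gria4* above *Grik4* in 16, *Grik2* above *Grik3* in 15, *Grik5* above *Gria4* in 14 and *Grik1* above *Grik2* in 10. Of these neighbours only *Grik4* and *Grik1* had means farther apart than the larger of their SDs.

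In the frontal cortex *Gria1* and *Gria2* were level, at 55.2 ± 9.65 and 54.0 ± 4.97 CPM per kilobase, with *Gria1* above in 12 of 20 libraries. *Gria3* followed at 32.7 ± 2.98 and was below *Gria2* in all 20. *Grik5* and *Gria4* were both at 11.3 (SD 4.13 and 3.97), each above the other in 10 libraries. *Grik4* was at 3.75 ± 1.96, and *Grik1*, *Grik3* and *Grik2* lay between 1.68 and 1.87 and did not differ beyond their spread. The order at the top depends on the length used. With the longest transcript in place of all exons, the cortical order became *Gria2* (81.0), *Gria3* (62.0) and *Gria1* (60.1), while *Gria1* stayed first in the hippocampus (101 against 89.1 for *Gria2*). The key resources list names a kit that reads transcript ends, whereas the methods and labels name a TruSeq kit; if reads came from transcript ends, dividing by length would not apply, and without it *Gria2* was first in both regions.

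As shares of the summed per-length level of the 4 AMPA subunits, *Gria1* made up 48.3% ± 7.04 in hippocampal and 35.8% ± 4.59 in frontal cortical libraries (SD, n = 20). *Gria2* made up 31.7% ± 5.16 and 35.4% ± 3.91, *Gria3* 14.8% ± 4.04 and 21.4% ± 1.99, and *Gria4* 5.25% ± 2.37 and 7.38% ± 2.57. With no length scaling *Gria2* held the larger share in both regions, with *Gria1* at 30.5% ± 5.97 and 21.2% ± 3.37 and *Gria2* at 50.9% ± 5.51 and 53.6% ± 3.88. Among kainate subunits *Grik5* made up 54.2% ± 13.1 and 54.6% ± 12.1, and *Grik4* 24.0% ± 9.46 and 18.5% ± 9.19. The subunits that can form channels alone, *Grik1* to *Grik3*, each held between 5.03% and 9.19%; with no length scaling this range was 6.84% to 17.4%, with *Grik2* at 16.2% and 17.4%. The AMPA sum was 8.80 ± 2.14 times the kainate sum in hippocampal and 7.81 ± 1.56 times in frontal cortical libraries, a difference smaller than the spread between libraries. With no length scaling these ratios were 13.4 ± 3.49 and 12.2 ± 1.93.

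**Figure D2:**
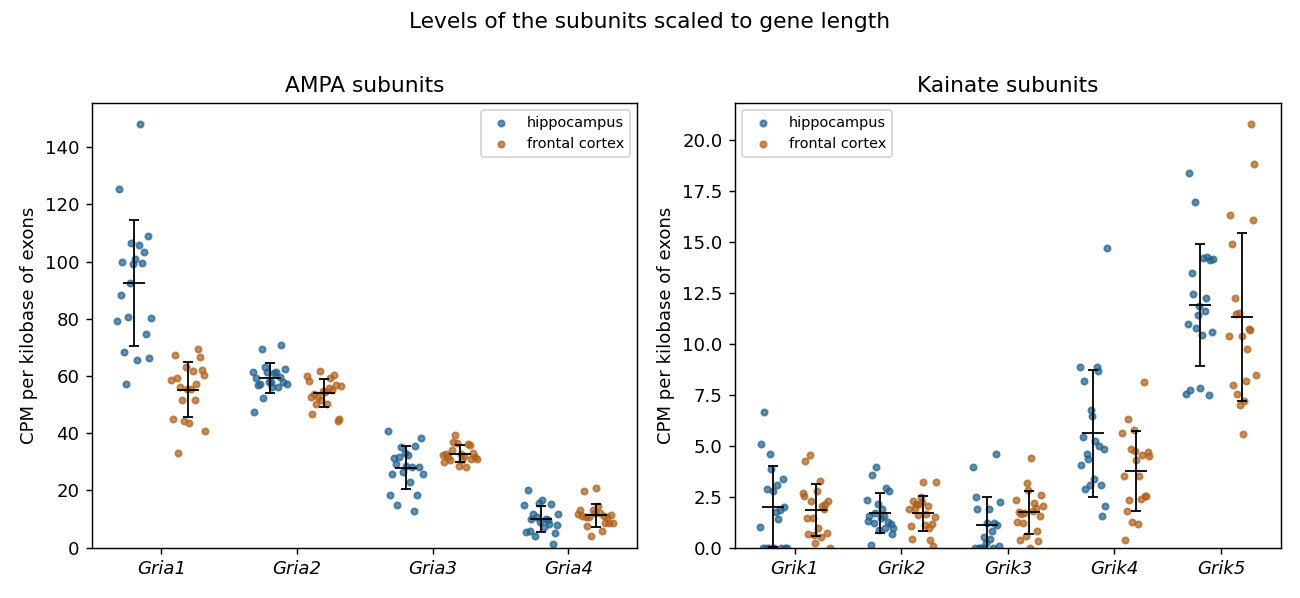
Points are single libraries in CPM per kilobase of annotated exons (linear axes from 0, with a different scale in each panel), with the mean and SD of 20 libraries per region in black. Hippocampal *Gria1* averages 92.6 against 59.4 for *Gria2*, whereas the 2 genes are level in the frontal cortex, and *Grik5* leads the kainate family in both regions.

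The study's own comparison asks whether the post-KD microbiota alters gene expression relative to pre-KD controls. In the hippocampus 0 of 9 subunits changed by edgeR's quasi-likelihood test, neither at an adjusted p under 0.05 nor at an unadjusted one. The background is 0.0057% of 17529 genes at the adjusted and 10.1% at the unadjusted threshold. DESeq2 also called 0 of 9 at either threshold (background 0.0% and 3.42%). In the frontal cortex the count was again 0 of 9 at both thresholds and with both tools, against 0.0056% of 17873 genes adjusted and 9.68% unadjusted (0.0112% and 4.62% by DESeq2). The median log2 difference of the 9 subunits was 0.05 (hippocampus) and 0.01 (frontal cortex), beside -0.01 and 0.01 over all genes tested.

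In the hippocampus *Gria1* had a lowest, median and highest value of 396, 606 and 895 CPM in pre-KD and 345, 546 and 759 CPM in post-KD libraries. The groups overlapped over most of their range, and the log2 difference was -0.10 (SE 0.13, adjusted p = 0.9998). *Gria2* ran from 873 over 916 to 1102 CPM pre-KD and from 737 over 909 to 1079 CPM post-KD, a log2 difference of -0.05 (SE 0.11). *Gria3* and *Gria4* differed by 0.07 (SE 0.16) and 0.21 (SE 0.30). Post-KD was the higher value of a donor's pair for 4 of 10 donors in *Gria1*, 5 in *Gria2*, 7 in *Gria3* and 5 in *Gria4*.

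In the frontal cortex *Gria1* ran from 246 over a median of 355 to 419 CPM pre-KD and from 200 over 338 to 407 CPM post-KD. The log2 difference was -0.09 (SE 0.12, unadjusted p = 0.431, adjusted p = 0.9796), with post-KD higher for 5 of 10 donors. *Gria2*, at 688, 864 and 941 CPM pre-KD and 728, 828 and 958 CPM post-KD, differed by 0.01 (SE 0.09). *Gria3* differed by 0.05 (SE 0.11) and *Gria4* by 0.01 (SE 0.21). Groups overlapped for all 4 AMPA genes.

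Among the kainate subunits, hippocampal *Grik1*, a subunit known from interneurons, had 0 counts in 4 pre-KD and 3 post-KD libraries, medians of 10.6 and 19.01 CPM and highest values of 22.7 and 44.6 CPM. Its log2 difference of 0.98 (SE 0.81, unadjusted p = 0.228, adjusted p = 0.958) had the lowest p of the 9 subunits. With the donor as a replicate block it was 1.84 (unadjusted p = 0.137) and, in DESeq2, 2.43 (unadjusted p = 0.116), and post-KD was higher for 7 of 10 donors in each region. Hippocampal *Grik3* had 0 counts in 1 pre-KD and 5 post-KD libraries, with medians of 10.3 and 0.967 CPM and a log2 difference of -0.60 (SE 0.91). With the donor as a replicate block in DESeq2 that difference was -2.02 (unadjusted p = 0.0486, adjusted p = 0.921), the only unadjusted p under 0.05 among the 9 subunits over the alternatives run in either region (background of that fit 5.31%). Without donor 7 the difference was 0.0097. *Grik2*, *Grik4* and *Grik5* differed by 0.26 (SE 0.52), -0.08 (SE 0.41) and 0.05 (SE 0.28) in the hippocampus. In the frontal cortex the 5 kainate subunits lay between -0.08 (*Grik5*, SE 0.23) and 0.31 (*Grik1*, SE 0.56).

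To ask whether the post-KD difference was unlike in the 2 regions, a single fit with cohort terms was made for all 40 libraries, and 0 of 9 subunits were called, beside 0.0154% of 19422 genes. The extremes were *Grik3* (-2.26 on the log2 scale, SE 1.28, unadjusted p = 0.0780) and *Grik1* (0.63, SE 1.3), and 0 of 9 had an unadjusted p under 0.05 against 2.22% of all genes. DESeq2 gave *Grik3* -2.63 (unadjusted p = 0.02005, adjusted p = 0.831), beside 4.89% of all genes at its unadjusted threshold. The size of the *Grik3* value was not stable: it was -0.52 (unadjusted p = 0.612) without the cohort terms, and lay between -3.06 (without donor 3) and -1.41 (without donor 7) when 1 donor was left out. Over its 16 alternatives the unadjusted p lay between 0.02005 and 0.612, and the adjusted p was never under 0.831. Leaving out donors 9 and 10, 0 of 9 subunits passed post-KD in either region at either threshold. Hippocampal *Gria1* was then at -0.23 (unadjusted p = 0.123) and hippocampal *Grik1* at 0.58 (unadjusted p = 0.512).

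**Figure D3:**
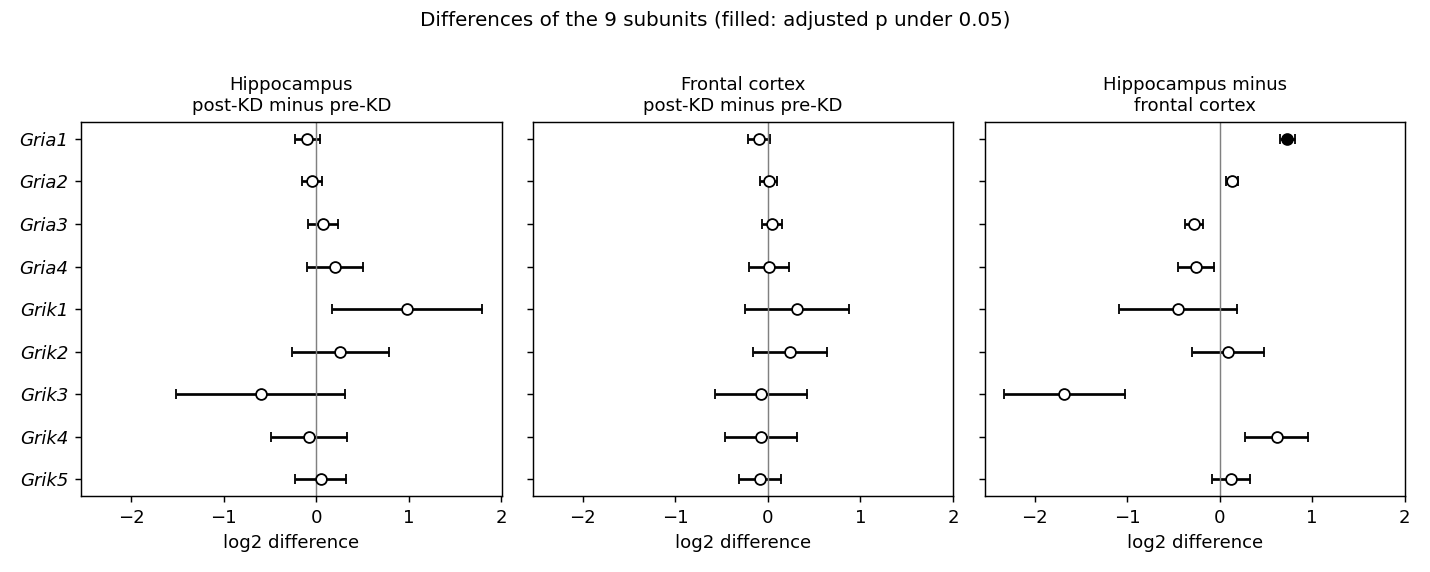
Fitted log2 differences of the 9 subunits with their standard errors, on one axis range for all panels; filled symbols passed an adjusted p of 0.05. All post-KD differences are open and most lie near 0, and *Gria1* is the only filled symbol, at 0.73 between regions.

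The proteins that bind, place or modify these receptors were taken from lists of 39 genes. Post-KD, 0 of 39 passed the adjusted threshold in either region, and 3 had an unadjusted p under 0.05: 2 hippocampal and 1 cortical. These are smaller shares than the 10.1% and 9.68% of all genes at that threshold, so the 3 genes are given as values and not as a result about the list. *Pick1*, which binds the tails of GluA2 and GluA3 and guides their internalization, ran from 2.18 to 58.9 CPM in pre-KD (24.6 ± 18 CPM, SD, n = 10) and from 9.69 to 74.1 CPM in post-KD hippocampal libraries (45.8 ± 21.9 CPM), a log2 difference of 0.88 (SE 0.42, unadjusted p = 0.0378, adjusted p = 0.419). *Adarb2*, a catalytically inactive relative of the editing enzyme, was at 17.4 ± 14.4 and 5.18 ± 3.95 CPM there, a difference of -1.74 (SE 0.84, unadjusted p = 0.0394, adjusted p = 0.429). Both had an unadjusted p over 0.05 when single donors were left out (1, 2, 5, 9 or 10 for *Pick1*, and 1, 2, 3, 4 or 6 for *Adarb2*), *Pick1* without donors 9 and 10 together (p = 0.0848) and *Adarb2* with the donor as a replicate block (p = 0.119). *Nptx1*, a secreted pentraxin that clusters AMPA receptors, was at 129 ± 26.1 CPM in pre-KD against 176 ± 37.5 CPM in post-KD frontal cortical libraries, a difference of 0.44 (SE 0.15, unadjusted p = 0.00335, adjusted p = 0.122). In the other region the same genes differed by 0.15 (SE 0.38) for *Pick1*, -0.23 (SE 0.63) for *Adarb2* and 0.10 (SE 0.17) for *Nptx1*. A test of these post-KD differences between regions did not pass for any of the 3 (unadjusted p = 0.101, 0.192 and 0.0831). The median over the 39 genes was 0.10 (hippocampus) and -0.02 (frontal cortex).

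Between regions, *Gria1* was higher in the hippocampus, and it was the only 1 of 9 subunits to pass, beside 2.85% of 19422 genes called in either direction and 0.87% called higher in the hippocampus. At an unadjusted p under 0.05, 4 of 9 passed (*Gria1*, *Gria2*, *Gria3* and *Grik3*), beside 10.9%. It was higher in the hippocampal pool of 20 of 20 cohorts, with a log2 difference of 0.73 (SE 0.08, adjusted p = 1.2e-15), or 1.66-fold. The 20 hippocampal libraries ran from 345 over a median of 579 to 895 CPM and the 20 cortical ones from 200 over 343 to 419 CPM. The regions overlapped, but 16 hippocampal libraries lay above every cortical library and 11 cortical libraries lay below every hippocampal one. The difference was 0.72 in pre-KD and 0.74 in post-KD cohorts alone and 0.74 without donors 9 and 10, and it passed in all 19 alternatives, at 0.69 to 0.77. Region cannot be told apart from any step that was done for each region separately.

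*Gria2* was the higher value in the hippocampus for 17 of 20 cohorts, with a log2 difference of 0.14 (SE 0.07, unadjusted p = 0.0353, adjusted p = 0.395), and did not pass; DESeq2 put it at 0.17 (adjusted p = 0.0125), past the threshold that 5.32% of genes passed there, and the adjusted p ranged from 0.0125 to 0.899 over the alternatives. *Gria3* was the lower value in the hippocampus for 15 of 20 cohorts, with a log2 difference of -0.28 (SE 0.10, unadjusted p = 0.00413, adjusted p = 0.111; -0.34 without donors 9 and 10), with hippocampal libraries from 128 to 402 CPM and cortical ones from 278 to 389 CPM. Its spread was wider in the hippocampus, with 8 libraries below every cortical library and 1 above. *Gria4* differed by -0.25 (SE 0.20) and was higher in 8 of 20 cohorts.

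The per-length ratio of *Gria1* to *Gria2*, which does not depend on library size, was 1.58 ± 0.440 in hippocampal and 1.03 ± 0.225 in frontal cortical libraries (SD, n = 20). *Gria3* was at 0.319 ± 0.119 of *Gria1* in the hippocampus and at 0.613 ± 0.130 in the cortex. The ratio of *Gria4* to *Gria2* was 0.169 ± 0.0769 and 0.213 ± 0.0827, which differed by less than its spread. The side of 1 on which a ratio lies depends on the length used: with no length scaling *Gria1* over *Gria2* was 0.614 ± 0.171 and 0.402 ± 0.0873, and with the longest transcript 1.15 ± 0.320 and 0.752 ± 0.163. *Gria3* over *Gria1* was 0.520 ± 0.195 and 0.999 ± 0.213 with no length scaling. A length only multiplies a ratio by the same factor in both regions.

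None of the kainate subunits passed between regions. *Grik3* differed by -1.68 (SE 0.65, unadjusted p = 0.0103, adjusted p = 0.201), with medians of 6.01 CPM in the hippocampus and 15.5 CPM in the cortex, and was lower in the hippocampal pool of 13 of 20 cohorts. DESeq2 called it (-1.84, adjusted p = 0.0212), and the value moved from -3.02 in post-KD to -0.68 in pre-KD cohorts alone, to -1.35 without donors 9 and 10 and to -0.64 without the cohort term. *Grik4* was the higher value in the hippocampus for 14 of 20 cohorts, with a log2 difference of 0.62 (SE 0.34, unadjusted p = 0.0689, adjusted p = 0.533). *Grik2* and *Grik5* differed by 0.09 (SE 0.39) and 0.12 (SE 0.20). *Grik1* had no settled direction: the fit gave -0.45 (SE 0.64), while its mean was 13.6 CPM in hippocampal and 12.5 CPM in cortical libraries. Its value was 0.042 without the cohort term and lay between -0.85 and -0.11 when 1 donor was left out. For 0 of 9 subunits were the 2 regions fully separate, a separation that 0.0721% of all genes showed. The median over the 9 subunits was 0.09, beside -0.17 over all genes tested in the same fit. That median over all genes was -0.025 without the cohort term and -0.074 with DESeq2.

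**Figure D4:**
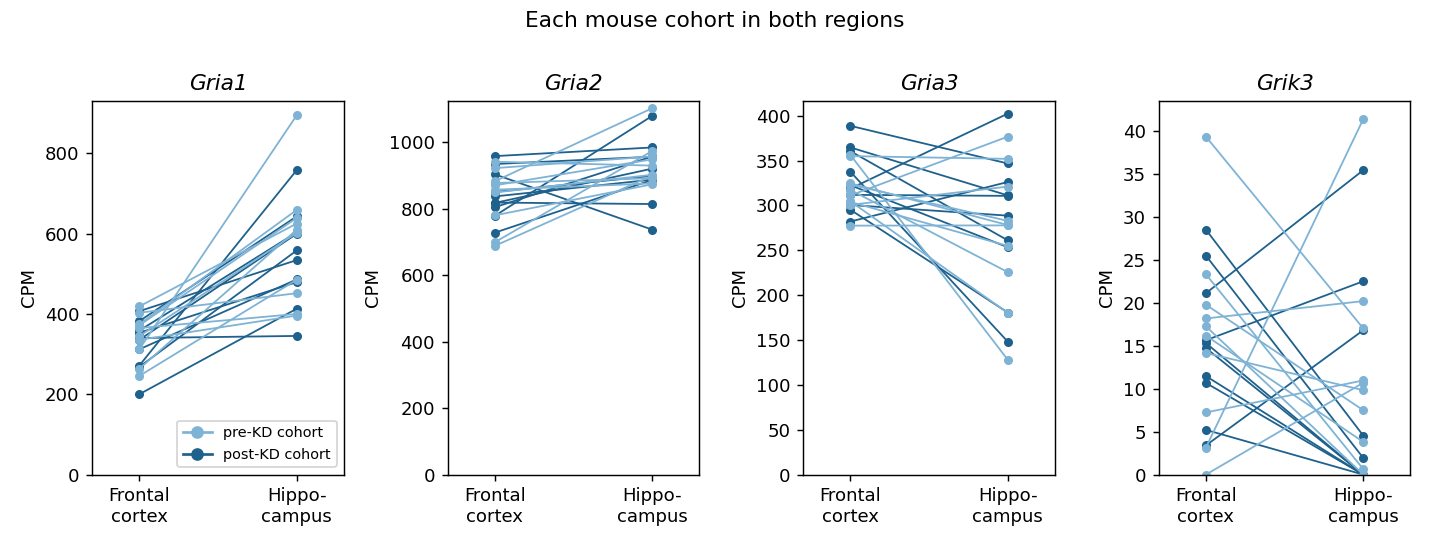
Each line joins the frontal cortical and the hippocampal library of 1 cohort (CPM, linear axes from 0), in light blue for pre-KD and dark blue for post-KD cohorts. All 20 *Gria1* lines rise toward the hippocampus, *Gria2* rises in 17, *Gria3* falls in 15 and *Grik3* falls in 13, and is at 0 in 6 hippocampal libraries.

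Genes of other tissue moved with region as well. Defining hippocampal markers were present, with a summed level of 745 to 1219 CPM in the hippocampus against 408 to 756 CPM in the cortex; 4 of 6 passed as higher and *Tdo2* was at 0 in all cortical libraries. Cortical markers summed to 190 to 456 CPM in the hippocampus and 266 to 531 CPM in the cortex, with 2 of 6 passing as lower in the hippocampus and *Fezf2* as higher. Of 7 striatal markers, 6 had enough counts to test and all 6 passed as lower in the hippocampus, at a sum of 49.3 to 287 CPM against 447 to 1018 CPM; *Drd2*, a defining one, had 0 counts in the hippocampus and 5 in the cortex. Choroid plexus genes were higher in the hippocampus (6 of 10 passed), at 717 to 5635 against 131 to 893 CPM. Interneuron markers summed to 185 to 368 CPM in the hippocampus and 277 to 424 CPM in the cortex, with *Gad1* and *Gad2* (2 of 3) lower in the hippocampus, whereas general neuronal markers, at 4445 to 5739 and 4761 to 6025 CPM, overlapped (1 of 5 passed as lower). None of 5 astrocyte, 6 oligodendrocyte, 2 oligodendrocyte precursor, 3 thalamic and 3 tested blood markers passed. Their part in the differences between regions was not tested, and in bulk tissue fewer cells of a type and less RNA per cell cannot be told apart. Post-KD, 0 genes of any of these lists passed the adjusted threshold in either region. At an unadjusted p under 0.05, 2 of 3 tested blood markers and 1 of 6 striatal markers were higher in post-KD cortex, beside *Nptx1*, with medians of 0.41 and 0.08 over the lists. Of all genes tested, 9.68% passed that threshold in the cortex and 10.1% in the hippocampus. In the post-KD hippocampus, beside *Pick1* and *Adarb2*, 1 of 6 striatal markers was lower (median -0.55, with 6 of 6 negative), 1 of 6 hippocampal markers was higher and 1 lower, and 1 of 6 oligodendrocyte markers was higher. Their part in the post-KD values was not tested.

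Of the 39 partner genes, 7 were higher and 5 lower in the hippocampus at the adjusted threshold (background 0.87% and 1.98%). The subunits' own counts were 1 and 0 of 9. The partner median was -0.13, beside -0.17 over all genes in the same fit with cohort terms. Extracellular partners stood on the hippocampal side, with 4 of 6 higher and 0 lower. *C1ql2*, a secreted protein of mossy fibers that binds kainate receptors, was at 21.2 ± 14.2 CPM in the hippocampus (4.51 to 66.7 CPM, n = 20) and 1.03 ± 1.39 CPM in the cortex, where 10 of 20 libraries had no count, a log2 difference of 4.75 (SE 0.70, adjusted p = 2.71e-09). *Nptx1* was at 239 ± 63.8 and 153 ± 39.5 CPM, a difference of 0.63 (SE 0.11, adjusted p = 4.73e-06), and was 0.43 (adjusted p = 0.161) in post-KD cohorts alone. The receptor pentraxin *Nptxr* differed by 0.31 (SE 0.09, adjusted p = 0.0288). That call was lost when donor 1, 2, 3, 4, 8, 9 or 10 was left out, without donors 9 and 10 together (0.22, adjusted p = 0.430), with filterByExpr (0.30, adjusted p = 0.0529) and in pre-KD cohorts alone (0.18, adjusted p = 0.939).

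AMPA auxiliary proteins, which sit in the membrane beside the channel and set its gating and trafficking, divided between the regions, with 2 of 13 higher and 4 of 13 lower in the hippocampus. *Shisa6*, which holds receptors at the synapse and slows their desensitization, was at 33.1 ± 28.1 CPM in the hippocampus and 6.31 ± 4.42 CPM in the cortex, a log2 difference of 2.41 (SE 0.46, adjusted p = 2.63e-05), and 2.33 (adjusted p = 0.078) in post-KD cohorts alone. *Cnih2*, a cornichon that slows channel closing, was at 269 ± 76.2 and 194 ± 56.2 CPM, a difference of 0.47 (SE 0.11, adjusted p = 0.000692), which did not pass in pre-KD or post-KD cohorts alone (0.48 and 0.46, adjusted p = 0.0893 and 0.0956). *Gsg1l*, a negative modulator of AMPA currents, was at 16.5 ± 17.5 CPM in the hippocampus, with no count in 5 libraries, and 39.5 ± 15.6 CPM in the cortex. The fitted difference was -2.03 (SE 0.39, adjusted p = 1.86e-05), larger than these means imply. It was -1.28 (adjusted p = 0.256) in post-KD cohorts alone and ran from -2.82 to -1.28 over the 19 alternatives. The TARP (transmembrane AMPA receptor regulatory protein) genes *Cacng4*, *Cacng3* and *Cacng2* were lower in the hippocampus, by -1.13 (SE 0.30), -0.84 (SE 0.22) and -0.42 (SE 0.13), with adjusted p of 0.00741, 0.00819 and 0.0454. *Cacng4* did not pass in pre-KD cohorts alone (-0.88, adjusted p = 0.646). The call for *Cacng2* was lost with RLE size factors (adjusted p = 0.0845), with no filter (0.0614), without donors 9 and 10 (0.0741), when donor 1, 2, 4, 5, 6 or 10 was left out, and in pre-KD and post-KD cohorts alone (-0.46 and -0.37, adjusted p = 0.352 and 0.586). *Cacng3* was lost when donor 2, 5 or 10 was left out and without donors 9 and 10 (-0.62, adjusted p = 0.240), and in post-KD cohorts alone, where it was -0.35 (adjusted p = 0.868).

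Other direct partners did not pass. *Cacng8*, which encodes the TARP known to be abundant in hippocampal pyramidal cells, had only 95 counts over 20 hippocampal libraries and 106 over 20 cortical ones, with no count in 11 and 8 libraries, so that its log2 difference of -0.70 (SE 1.18) says little. *Cnih3* differed by -0.68 (SE 0.28, adjusted p = 0.267) and *Shisa9* by 0.14 (SE 0.39). The kainate auxiliary genes *Neto1* and *Neto2*, which slow kainate receptor decay, were at 49.1 ± 23.7 and 49.2 ± 19.5 CPM and at 33.4 ± 23.6 and 42.8 ± 15.2 CPM, with differences of -0.02 (SE 0.24) and -0.58 (SE 0.28, adjusted p = 0.418). *Adarb1*, the enzyme that edits the Q/R codon printed above, was at 77.1 ± 32.4 and 92.3 ± 32.2 CPM, a difference of -0.32 (SE 0.17, adjusted p = 0.503), and *Adarb2* had no settled direction either. Its mean was 11.3 ± 12.03 CPM in hippocampal and 10.03 ± 6.87 CPM in cortical libraries, while the fit gave -0.23 (SE 0.62), with 0.54 in pre-KD and -1.14 in post-KD cohorts alone. Among scaffold and trafficking genes 1 of 8 was higher (*Nsf*) and 1 lower: *Grip2*, which binds the GluA2 tail, was at 6.30 ± 9.06 CPM in the hippocampus, with no count in 9 libraries, and 17.1 ± 13 CPM in the cortex, a difference of -2.93 (SE 0.76, adjusted p = 0.00674). That call was lost without the cohort term (-1.51, adjusted p = 0.0857), also when donor 2 or 7 was left out, and in pre-KD and post-KD cohorts alone (-3.23 and -2.52, adjusted p = 0.122 and 0.537). None of 5 assembly genes, 3 editing genes and 2 delta receptor genes passed.

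**Figure D5:**
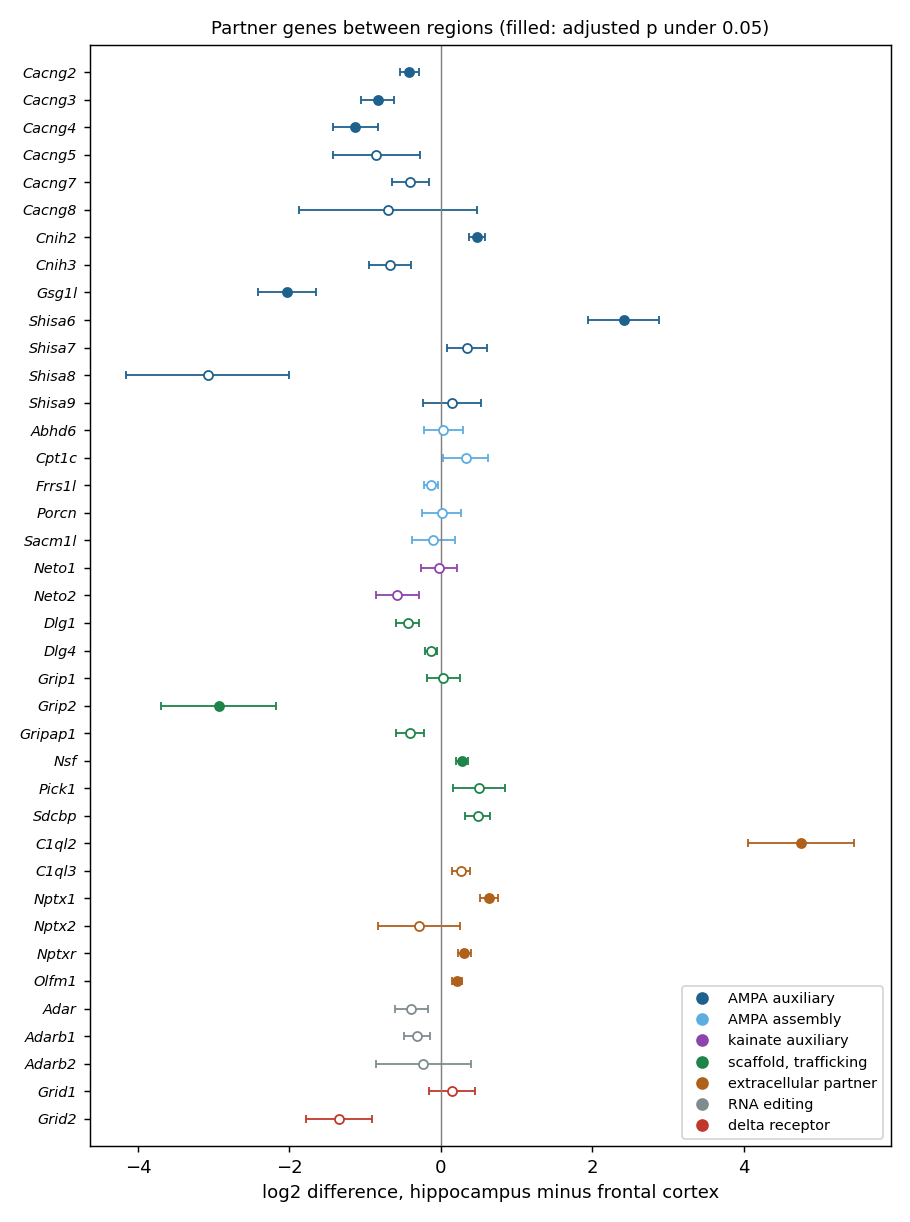
Log2 differences between hippocampus and frontal cortex with standard errors for 39 partner genes, grouped by colour; filled symbols passed an adjusted p of 0.05. *C1ql2* at 4.75 and *Shisa6* at 2.41 lie farthest to the hippocampal side among the filled symbols, and *Grip2* at -2.93 and *Gsg1l* at -2.03 farthest to the cortical side.

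The gene whose pattern over the 40 libraries was most like that of *Gria1* was *Zbtb20*, a transcription factor gene of hippocampal neurons that is also in the hippocampal marker list, followed by *Tcf4*. Likeness was measured as the root mean square difference of centred log2 CPM among 8157 genes averaging at least 20 counts, and was 0.303 for *Zbtb20* and 0.330 for *Tcf4*, beside 0.473 for the variation of *Gria1* itself. *Zbtb20* differed between regions by 0.73 and *Tcf4* by 0.62. For *Gria2* the nearest genes, *Map2* (0.181) and *Gpm6a* (0.185), lay farther away than its own variation of 0.145, so no gene followed it more closely than a flat line would. *Gria3* was nearest to *Rims1* (0.273) and *Napb* (0.289), beside its own 0.346. For *Grik5* the nearest gene was at 0.377, beside its own 0.429. The libraries share 2 tissues and a common scale, and these values are descriptions.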

How the data were processed

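For each region, the deposited table holds raw counts, not normalized by the authors, of 47643 genes by Ensembl identifier. According to the labels and methods, reads were checked with FastQC 0.11.5, aligned to mm10 with STAR 2.5.2a, handled with SAMtools 1.3 and counted with HTSeq 0.6.0. The annotation release and strand setting are not given in the sources used here, and reads shared by near-identical genes may be split or dropped. Total counts per library ranged from 1140756 to 2095352. Positions and exon lengths came from GENCODE M21 (GRCm38), which held 47224 of the genes.

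Genes with at least 10 summed counts were tested with edgeR 4.0.16 (quasi-likelihood, TMM, R 4.3.3): post-KD against pre-KD within each region, and regions over 40 libraries with a term for each cohort. Adjusted p-values (Benjamini-Hochberg) cover every gene in a fit. Alternatives were DESeq2 1.42.0, RLE size factors, other gene filters, *Gm42418* left out, the donor as a block, the cohort term left out, each condition alone and each donor left out. Leaving out donors 9 and 10 together was added after the data were seen. The members, the partner and marker lists and the alternatives were chosen with earlier results of these data known.

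The donor links a pre-KD and a post-KD cohort by design. Correlations of paired libraries after removing group means lay between -0.0467 and 0.0322, with 0 of 20 pairs above 0.1. Between regions of a cohort they lay between -0.0231 and 0.202, with 1 of 10 pre-KD and 0 of 10 post-KD pairs above 0.1. On simulated data, the fits within a region called more unchanged genes than the threshold allows, and the fits with cohort terms did not. Of the libraries, 0 pairs were identical. Named partner genes are those past an unadjusted p of 0.05 post-KD, the 5 largest called differences each way between regions and 12 direct partners; the 2 genes most like each subunit were found for subunits averaging at least 20 counts.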

Additional observations from a re-analysis of the deposited data

Results flagged for a closer look

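In 4 of 36 groups of 10 libraries, the highest library stood apart from the others by Dixon's criterion. Chance alone marks about 1 in 20 groups of normal and independent values, which these groups need not be. *Gria1* was at 895 CPM in the hippocampal pre-KD pool of donor 4, beside 659 CPM in the next library (1434 counts). *Gria2* was at 1102 CPM in the hippocampal pre-KD pool of donor 7, beside 974 CPM. *Grik3* was at 41.4 CPM (62 counts) in that same pool, beside 20.2 CPM. *Grik4* was at 48.6 CPM (94 counts) in the frontal cortical pre-KD pool of donor 6, beside 28.0 CPM. All 4 were pre-KD libraries.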

How the results depend on the processing

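The hippocampal *Gria1* difference between regions kept its direction and passed in all 19 alternatives. No subunit passed post-KD in any alternative. Of the values of single subunits, 487 kept direction and side of the threshold, 38 changed sign and 2 passed newly; of partner gene values, 328 kept both, 12 changed sign and 37 no longer passed. Where values changed, the cause was not tested.

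Post-KD, the count of genes past the adjusted threshold in the hippocampus was 1, and 0 with the donor as a replicate block, with DESeq2, with both, and with filterByExpr, and 1291 with no filter; leaving out single donors gave 0 to 1 (0 without donor 4 or 9). In the frontal cortex the count of 1 became 3 with the replicate block, 2 with DESeq2 and 12 with both. At an unadjusted p under 0.05, the hippocampal 1762 became 348 with the block, 599 with DESeq2, 931 with both, 221 with filterByExpr and 2931 with no filter. In the same order the cortical 1731 became 548, 825, 1096, 407 and 3035. Between regions 554 became 1033 with DESeq2, 1935 with no replicate block, 251 in post-KD and 193 in pre-KD cohorts alone. For the change post-KD between regions, 3 became 0 with DESeq2 and 348 with no replicate block. Without donors 9 and 10 the counts were 1, 1, 468 and 2. With no length scaling the share of *Gria2* was 50.9% (hippocampus) and 53.6% (frontal cortex).

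Signs changed as follows. With the replicate block, *Grik4* was at 0.11 in the hippocampus, and *Gria4* at -0.017 and *Grik3* at 0.081 in the cortex; with the block in DESeq2 these were 0.12, -0.010 and 0.097. Without donors 9 and 10, hippocampal *Grik4* was at 0.021, cortical *Gria2*, *Gria4* and *Grik5* at -0.012, -0.068 and 0.048, *Grik1* in the test between regions of the post-KD change at -0.82 and *Shisa9* between regions at -0.014. Between regions, *Grik1* was at 0.042 with no replicate block, *Grik2* at -0.084 and *Cacng8* at 0.96 in post-KD cohorts, and *Adarb2* at 0.54, *Neto1* at 0.014 and *Shisa9* at -0.37 in pre-KD cohorts. *Neto1* was at 0.0075 with DESeq2 and with RLE size factors.

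Leaving out single donors, hippocampal post-KD values ran from -0.067 to 0.0096 (*Gria2*), -0.015 to 0.21 (*Gria3*), -1.28 to 0.0097 (*Grik3*), -0.24 to 0.17 (*Grik4*) and -0.067 to 0.11 (*Grik5*). Cortical ones ran from -0.048 to 0.041 (*Gria2*), -0.19 to 0.15 (*Gria4*), -0.28 to 0.22 (*Grik3*), -0.18 to 0.17 (*Grik4*) and -0.23 to 0.10 (*Grik5*). Between regions they ran from -0.10 to 0.33 (*Grik2*), -1.11 to 0.030 (*Cacng8*), -0.16 to 0.20 (*Neto1*) and -0.043 to 0.38 (*Shisa9*), and for the post-KD change of *Grik1* between regions from -0.28 to 1.39.

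In single conditions, calls between regions were lost for *Cacng4* and *Nptxr* (pre-KD), *Cacng3*, *Gsg1l*, *Nptx1* and *Shisa6* (post-KD) and *Cacng2*, *Cnih2* and *Grip2* (each). Genes with few counts, such as *Grik1* and *Grik3*, carried standard errors too wide to show differences of the size seen for *Gria1*.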
